A study of Homo sapiens with 4 samples.

Results

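In 4 RNA-seq libraries of the breast cancer cell line HCC1937, 10 genes of the S100 family were followed: S100A2, S100A4, S100A6, S100A7, S100A8, S100A9, S100A10, S100A11, S100A14 and S100P. They were chosen by name, as the rows of each library's gene table that carry those symbols, and all 10 of 10 were found among 60487 rows per library. All 10 also passed the filter on low values, an FPKM (fragments scaled to transcript length and library size) of at least 1 in at least 1 library. With a minimum locus length of 300 nt, that filter left 18356 genes. HCC1937 comes from a breast carcinoma with a defect in BRCA1, a DNA repair gene. A subline carrying the vector is labelled BRCA1 -/- and a subline called wtBRCA1 is labelled wild type. Each subline was given either the solvent DMSO or OTX-015, a small molecule that blocks the acetyl-lysine pockets of the BET bromodomain proteins, which bring transcription machinery to acetylated chromatin. Each of the 4 combinations is 1 library of poly(A) RNA, with no replicate. The labels give no dose, no treatment time and no statement on whether a subline is 1 clone. BRCA1 and any other difference between the sublines cannot be told apart.

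S100 proteins are small calcium-binding proteins built from a pair of EF-hands. Most form dimers, open a binding face when calcium rises, and dock onto a partner such as an annexin, a myosin or ezrin. Some are also released from cells and act as danger signals on receptors such as AGER (RAGE) and TLR4. In the breast, S100A2 is known as a marker of basal and myoepithelial cells that p53 and p63 can switch on, S100A7 (psoriasin) and the S100A8 and S100A9 pair (calprotectin) as inflammatory proteins of some tumours, and S100A4 and S100P as proteins tied to cell movement.

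Of the 10 genes, 9 lie on chromosome 1 and S100P lies on chromosome 4 (GENCODE 29 coordinates, hg38). From the lowest coordinate, the chromosome 1 genes are S100A10 (chr1:151982915-151994390), S100A11 (chr1:152032506-152047907), S100A9 (chr1:153357854-153361027), S100A8 (chr1:153390032-153391188), S100A7 (chr1:153457744-153460701), S100A6 (chr1:153534599-153536244), S100A4 (chr1:153543613-153550136), S100A2 (chr1:153561108-153567890) and S100A14 (chr1:153614255-153616986). S100P is at chr4:6693069-6697170. S100A9 and S100P are on the plus strand and the other 8 on the minus strand. All 10 are protein-coding genes, and each FPKM covers the whole gene and not a particular exon.

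The promoter sequences of 5 genes are shown because 4 of them (S100A2, S100A8, S100A9 and S100P) had the largest called differences between the sublines, while S100A10 differed little under DMSO. Each is the 250 bases before an annotated RefSeq start (GRCh38.p14), 5′ to 3′ on the gene's own strand. S100A2 has 2 such starts, and the one with the motif is shown. S100A8 has 3, and the one with TATAAA beginning 29 bases before it is shown. Another S100A8 start has the same TATAAA 126 bases before it. Capitals mark the AP-1 motif TGANTCA in S100A2 (chr1:153565845-153566094, minus strand) and the TATA box TATAAA in S100A8 (chr1:153391074-153391323, minus), S100A9 (chr1:153357604-153357853, plus) and S100P (chr4:6693628-6693877, plus). S100A10 (chr1:151993860-151994109, minus) holds no searched motif.
S100A2: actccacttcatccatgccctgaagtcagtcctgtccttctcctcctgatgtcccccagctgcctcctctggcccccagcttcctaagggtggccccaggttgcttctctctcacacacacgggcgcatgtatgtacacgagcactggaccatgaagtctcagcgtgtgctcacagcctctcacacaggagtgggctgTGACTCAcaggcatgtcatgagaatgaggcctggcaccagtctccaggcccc
S100A8: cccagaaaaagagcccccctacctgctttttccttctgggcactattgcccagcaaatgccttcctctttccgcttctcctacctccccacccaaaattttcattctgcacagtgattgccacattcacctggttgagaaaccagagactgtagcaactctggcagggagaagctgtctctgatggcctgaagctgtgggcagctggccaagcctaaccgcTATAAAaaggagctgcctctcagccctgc
S100A9: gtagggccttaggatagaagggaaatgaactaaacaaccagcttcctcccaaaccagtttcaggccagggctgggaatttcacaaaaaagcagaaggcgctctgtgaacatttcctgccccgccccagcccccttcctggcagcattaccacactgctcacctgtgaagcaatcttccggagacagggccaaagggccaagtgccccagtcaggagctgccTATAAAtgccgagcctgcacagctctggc
S100P: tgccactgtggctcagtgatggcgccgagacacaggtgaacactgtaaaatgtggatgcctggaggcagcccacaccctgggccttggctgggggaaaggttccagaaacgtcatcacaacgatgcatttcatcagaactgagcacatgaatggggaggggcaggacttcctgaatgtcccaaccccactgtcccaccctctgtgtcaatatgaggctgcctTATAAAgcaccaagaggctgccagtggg
S100A10: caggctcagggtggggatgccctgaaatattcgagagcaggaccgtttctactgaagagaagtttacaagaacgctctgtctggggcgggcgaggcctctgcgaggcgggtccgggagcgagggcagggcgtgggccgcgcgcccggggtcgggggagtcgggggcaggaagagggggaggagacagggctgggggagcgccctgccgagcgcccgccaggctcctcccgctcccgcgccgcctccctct

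TATAAA, the letters of the core promoter element bound by TATA-binding protein, stood in the promoters of 5 of the 10 genes: S100A4, S100A7, S100A8, S100A9 and S100P. In each of those 5 it began 28 to 31 bases before a start. By windows of 250 bases before to 50 after a start, searched on both strands, 6 of 13 windows of these genes held it, against 11.5% of all 35116 windows. One of the 6 overlaps another window of S100A8 and holds the same TATAAA. The 5 genes with TATAAA ranged over 1.93 to 4.70 log2 units between their lowest and highest library, and 4 of the 5 without it (S100A6, S100A10, S100A11 and S100A14) over 0.48 to 1.06. S100A2, also without it, had the widest range at 7.62. This split was made after the values were seen. It also rests on exact letters: S100A6 and S100A14, counted as without TATAAA, hold TATAAG close to their starts. The AP-1 motif, bound by FOS and JUN proteins, was found in S100A2 alone, as TGACTCA beginning 52 bases before a start, against 7.71% of all windows. The C/EBP motif TTGCNNAA was found in S100A11 alone, on the opposite strand (10.5% of windows), and the p53 family motif in S100A7 alone (6.63%). Neither the STAT motif TTCNNNGAA (7.66%) nor the E-box CACGTG (7.26%) occurred in any of the 13 windows. A match is a run of letters, not a measured binding site.

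The library labels were checked first. BRCA1 stood at 37.2 FPKM in vector DMSO, 40.8 in vector OTX-015, 171 in wtBRCA1 DMSO and 2712 in wtBRCA1 OTX-015, so both wtBRCA1 libraries were the higher ones. Between 15004 and 15669 genes reached 1 FPKM per library. The files give no read counts, so depth is unknown. All 7 markers of mammary epithelium were present, with summed levels from 6006 to 25871 FPKM that are mostly KRT8. Summed FPKM over all genes was 909314 and 962378 under DMSO and 1496107 and 1477103 under OTX-015, and the 10 most abundant genes took 15.3% to 17.4% under DMSO and 33.8% to 39.2% under OTX-015. Values below are FPKM as deposited, and differences are of log2(FPKM + 1), which understates changes of low genes. Rescaled to TPM (in which all libraries have the same sum), the median gene shifted by −0.51 in the vector line and −0.46 in the wtBRCA1 line with OTX-015, against 0 in both as deposited.

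The 10 genes covered more than 3 orders of abundance, and the order changed with the subline. S100A6 (calcyclin) was the most abundant of them in each library, at 2133 FPKM in vector DMSO, 2377 in vector OTX-015, 1428 in wtBRCA1 DMSO and 2252 in wtBRCA1 OTX-015. These levels placed it between the 32nd and the 60th most abundant of the 18356 genes. The place behind S100A6 went to S100P in both vector libraries, to S100A2 in wtBRCA1 DMSO and to S100A9 in wtBRCA1 OTX-015. S100A7 was last in 3 libraries, and S100A2 was last in vector OTX-015. S100A10, S100A11 and S100A14 kept to 132 to 548 FPKM throughout. With 1 library per group, it cannot be said which neighbours in this order differ beyond replicate spread.

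**Figure D1:**
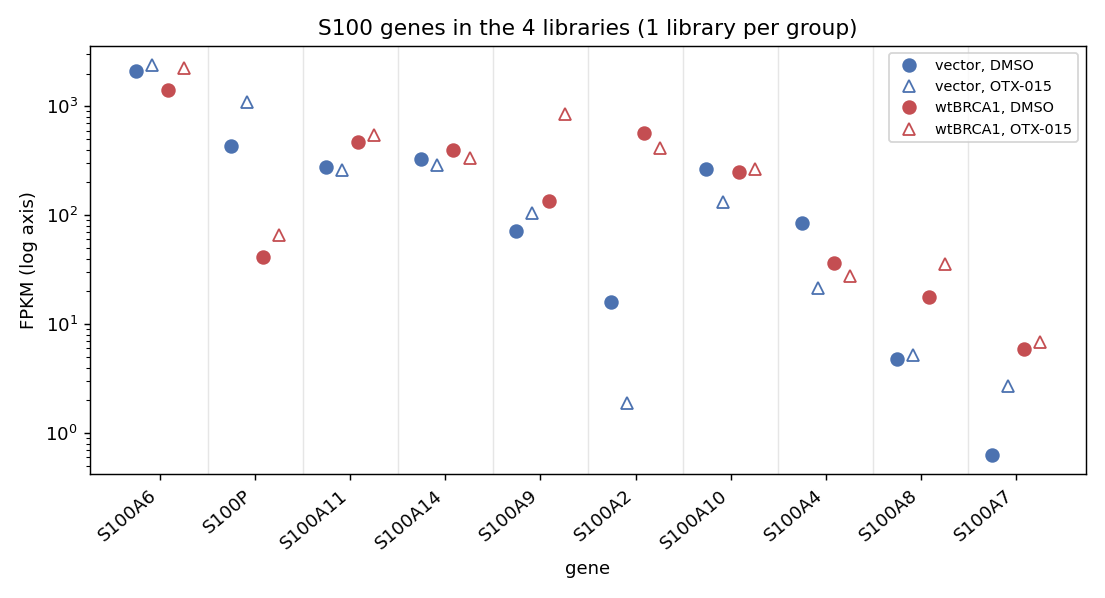
FPKM (log axis) of the 10 S100 genes, ordered by mean level, in the 4 libraries; blue is the vector subline, red the wtBRCA1 subline, filled circles DMSO and open triangles OTX-015, with 1 library per point. S100A2 spans 1.91 to 572 FPKM and S100P 41.0 to 1093 in opposite order of the sublines, while S100A6 stays between 1428 and 2377.

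The summed FPKM of the 10 genes was 3612 in vector DMSO, 4286 in vector OTX-015, 3356 in wtBRCA1 DMSO and 4803 in wtBRCA1 OTX-015. As a share of all FPKM this was 0.397%, 0.287%, 0.349% and 0.325% in the same order, so the sum was higher under OTX-015 while its share was lower. S100A6 made up 59.1% and 55.4% of the sum in the vector libraries and 42.5% and 46.9% in the wtBRCA1 libraries.

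**Figure D2:**
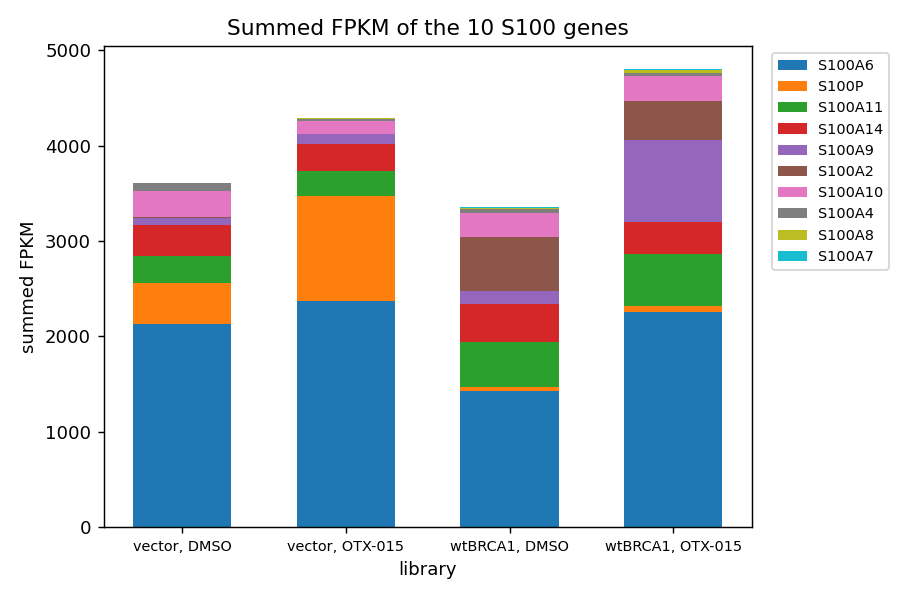
Stacked FPKM (linear axis from 0) of the 10 S100 genes in each of the 4 libraries, 1 bar per library. The bars are 3612, 4286, 3356 and 4803 FPKM tall; S100P adds 431 and 1093 FPKM to the vector bars, and S100A2 adds 572 and 412 to the wtBRCA1 bars.

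The question of the sublines was how these genes differ between wtBRCA1 and vector. BRCA1 RNA was also listed in the vector libraries, at 37.2 and 40.8 FPKM. The 2 wtBRCA1 libraries were unlike in it, at 171 under DMSO and 2712 under OTX-015. Of the 10, S100A2, S100A8, S100A9 and S100A11 rose in wtBRCA1 and S100P fell, in a limma fit of subline plus treatment over all 18356 genes with Benjamini-Hochberg adjustment at 0.05. Among all genes tested, 4.24% rose and 2.93% fell. The 2 libraries of a subline differ in treatment and are not replicates, so these p-values do not measure the spread between cultures. They set the subline difference against how unlike it was under DMSO and OTX-015, in the gene itself and in genes of like level. A gene can thus pass with unlike differences, as S100A9 did at 0.89 under DMSO and 3.03 under OTX-015. The remaining 5 did not pass, with adjusted p between 0.0686 (S100A7) and 0.574 (S100A4). By single pairs of libraries, which have no test, 3 of 10 were at least 2-fold higher in wtBRCA1 under DMSO (S100A2, S100A7 and S100A8; 14.9% of all genes) and 2 at least 2-fold lower (S100A4 and S100P; 11.8%). Under OTX-015, 6 were at least 2-fold higher (S100A2, S100A7, S100A8, S100A9, S100A10 and S100A11; 15.1% of all genes) and 1 at least 2-fold lower (S100P; 12.7%). Among those 6, S100A10 and S100A11 lay near the threshold, at 1.01 and 1.06 under OTX-015. The 6 became 4 with a pseudocount of 5 or quantile normalization, and 5 with median-of-ratios scaling. The median log2 difference of the 10 was 0.53 under DMSO and 1.03 under OTX-015, against 0.04 and 0 over all genes. Both wtBRCA1 libraries were above both vector libraries for 6 of the 10 (S100A2, S100A7, S100A8, S100A9, S100A11 and S100A14), as for 22.1% of all genes, and below them for 1 (S100P), as for 19.1%.

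**Figure D3:**
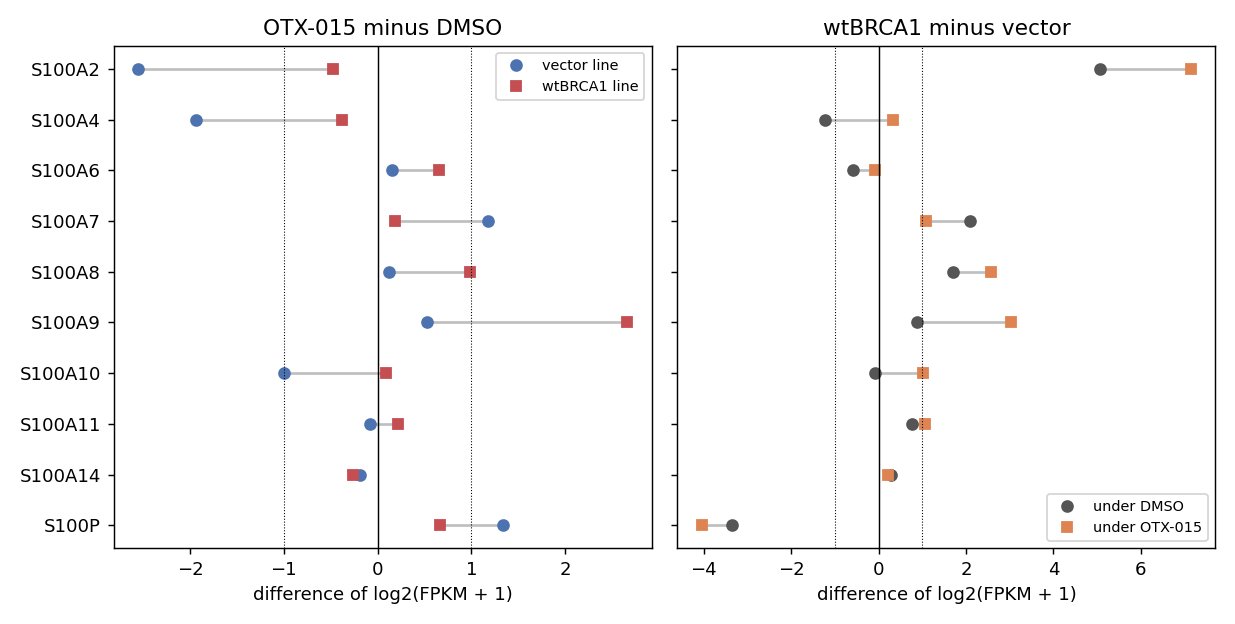
Differences of log2(FPKM + 1) for each S100 gene, with OTX-015 minus DMSO in each subline on the left and wtBRCA1 minus vector under each treatment on the right; each point compares 1 library with 1 other, grey bars join the 2 points of a gene, and dotted lines mark 2-fold. S100A2 lies at 5.07 and 7.15 and S100P at −3.36 and −4.04 on the right, beyond the dotted lines under both treatments.

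S100A2 had the largest subline difference of the 10. It stood at 16.1 FPKM in vector DMSO, 1.91 in vector OTX-015, 572 in wtBRCA1 DMSO and 412 in wtBRCA1 OTX-015. Both wtBRCA1 libraries were far above both vector libraries, by 35.6 times under DMSO and 216 times under OTX-015. Its rank among all genes went from 6225 and 13219 in the vector libraries to 187 and 402 in the wtBRCA1 libraries. The limma subline effect was 6.11 ± 0.46 (log2, SE; adjusted p = 0.000335). TP63, which encodes the basal factor p63, was listed at 0.147 FPKM in vector DMSO, 0 in vector OTX-015, 9.93 in wtBRCA1 DMSO and 0 in wtBRCA1 OTX-015. Its part in the S100A2 values was not tested. The keratins among the epithelial markers also differed between the sublines. The basal keratin KRT5 stood at 29.4 and 23.2 FPKM in vector DMSO and OTX-015 and at 980 and 573 in wtBRCA1, and KRT14, its partner chain, at 0.438 and 2.82 against 8.53 and 5.16. The luminal keratins were lower in wtBRCA1, KRT8 at 8160 and 23339 FPKM against 3185 and 4476, and KRT18 at 349 and 744 against 108 and 125. On the log2 scale the mean subline differences were 4.79 for KRT5, 1.71 for KRT14, −1.87 for KRT8 and −2.12 for KRT18. S100A2 was thus high in the libraries with more KRT5 and less KRT8, and the part of that keratin difference in its values was not tested.

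S100P ran the other way. It stood at 431 FPKM in vector DMSO, 1093 in vector OTX-015, 41.0 in wtBRCA1 DMSO and 65.4 in wtBRCA1 OTX-015. Both vector libraries were above both wtBRCA1 libraries, by 10.5 times under DMSO and 16.7 times under OTX-015, with a subline effect of −3.70 ± 0.27 (log2, SE; limma adjusted p = 0.000278). EZR, which encodes ezrin, the membrane and actin linker that S100P binds, also fell in wtBRCA1, from 422 and 667 FPKM in the vector libraries to 151 and 214 (effect −1.56, limma adjusted p = 0.00720). For S100A2, S100P and EZR in turn, the subline call was lost in 1, 1 and 2 of 13 alternative settings.

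S100A8 and S100A9 encode the partner chains of calprotectin, which binds zinc and manganese and is best known from neutrophils. S100A9 stood at 72.2 FPKM in vector DMSO, 104 in vector OTX-015, 135 in wtBRCA1 DMSO and 857 in wtBRCA1 OTX-015. The last library stood apart, at 6.36 times its DMSO partner and 8.23 times the vector library with the same treatment. S100A8 was lower throughout, at 4.75, 5.24, 17.6 and 35.9 FPKM in the same order. For both genes the 2 wtBRCA1 libraries were above the 2 vector libraries. The subline effects were 2.13 ± 0.37 for S100A8 (log2, SE; limma adjusted p = 0.0146) and 1.96 ± 0.44 for S100A9 (adjusted p = 0.0359). The S100A8 call was lost in 3 of 13 alternative settings (adjusted p from 0.00997 to 0.221) and the S100A9 call in 10 of 13 (0.0243 to 0.472). FPKM of S100A9 exceeded that of S100A8 by 15.2 times in vector DMSO, 19.9 in vector OTX-015, 7.66 in wtBRCA1 DMSO and 23.9 in wtBRCA1 OTX-015.

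Markers of myeloid cells, the usual source of calprotectin, were given the same look. Of 8 markers, 2 reached 1 FPKM in any library: CD14, a co-receptor of TLR4, at 0.109, 0, 9.51 and 5.62 FPKM and ITGAM at 0.498, 0, 1.72 and 0. The summed level of the 8 was 0.852 and 0 FPKM in the vector libraries and 11.7 and 5.62 in the wtBRCA1 libraries, so between the sublines it was higher where S100A8 and S100A9 were. Within each subline it was lower with OTX-015, where both genes were higher. MPO, ELANE and AIF1 were listed at 0 in every library, and LYZ, CSF3R and FCGR3B stayed at or below 0.438. Of 4 general leukocyte markers none reached 1 FPKM, with PTPRC at or below 0.225, and 3 endothelial markers summed to between 0.670 and 7.03. The part of CD14 and ITGAM signal in the S100A8 and S100A9 values was not tested. S100A12, the third S100 gene typical of neutrophils, was listed at 0 in all 4 libraries. In bulk RNA, fewer cells of a type and less RNA per cell cannot be told apart.

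S100A7 (psoriasin), a secreted antimicrobial protein of inflamed skin, was the least abundant of the 10. It stood at 0.634 FPKM in vector DMSO, 2.70 in vector OTX-015, 5.93 in wtBRCA1 DMSO and 6.88 in wtBRCA1 OTX-015. Both wtBRCA1 libraries were above both vector libraries, by 9.35 times under DMSO and 2.54 times under OTX-015 in FPKM. The subline effect of 1.59 ± 0.44 did not pass (limma adjusted p = 0.0686).

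S100A10 and S100A11 are the annexin-binding members. S100A10 (p11), which lacks working calcium sites and holds annexin A2 at the membrane, stood at 264 FPKM in vector DMSO, 132 in vector OTX-015, 250 in wtBRCA1 DMSO and 266 in wtBRCA1 OTX-015. Only the vector OTX-015 library was low. The ratio of S100A10 to ANXA2 FPKM was 1.03, 0.415, 0.809 and 0.856 in that order, and it too was lowest in vector OTX-015. The subline effect was 0.46 (limma adjusted p = 0.412). S100A11, a partner of annexin A1, stood at 277, 263, 471 and 548 FPKM. Its wtBRCA1 libraries were above its vector libraries, with an effect of 0.91 ± 0.22 (limma adjusted p = 0.0478) that lost its call in 10 of 13 alternative settings (0.0387 to 0.439). ANXA1 fell in wtBRCA1, from 1487 and 2151 FPKM to 834 and 965 (effect −0.99, limma adjusted p = 0.0164), a call lost in 3 of 13. The ratio of S100A11 to ANXA1 was 0.187 and 0.122 in the vector libraries and 0.565 and 0.568 in the wtBRCA1 libraries.

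S100A4, S100A6 and S100A14 did not pass for either factor. S100A4 (metastasin), which binds the heavy chain of nonmuscle myosin, stood at 85.3 FPKM in vector DMSO, 21.6 in vector OTX-015, 36.1 in wtBRCA1 DMSO and 27.6 in wtBRCA1 OTX-015. The vector DMSO library was the high one, and the subline difference changed sign with treatment (−1.22 under DMSO, 0.34 under OTX-015). S100A4 is also a fibroblast gene. Of 6 fibroblast markers only COL1A1 reached 1 FPKM, and COL1A2, COL3A1, DCN and PDGFRB were listed at 0 in all libraries. The summed level, nearly all COL1A1, was 2.11 in vector DMSO, 4.01 in vector OTX-015, 9.78 in wtBRCA1 DMSO and 8.39 in wtBRCA1 OTX-015. The part of fibroblast RNA in the S100A4 values was not tested. S100A6, a partner of the calcyclin-binding protein CACYBP, had subline differences of −0.58 under DMSO and −0.08 under OTX-015. S100A14, a member with an altered calcium site, was the steadiest of the 10, at 327, 287, 400 and 333 FPKM, a highest-to-lowest ratio of 1.39. CACYBP itself rose in wtBRCA1, from 21.6 and 25.2 FPKM to 65.9 and 53.3 (effect 1.31, limma adjusted p = 0.0469), a call lost in 10 of 13 alternative settings.

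The question of the treatment was how OTX-015 changed these genes in each subline. None of the 10 was called for OTX-015 by limma over both sublines, with adjusted p from 0.0736 (S100P) to 0.879 (S100A11). Over all genes, 2.92% rose and 2.13% fell. Without adjustment, 4 of the 10 had p under 0.05 (S100A2, S100A4, S100A9 and S100P), as did 22.3% of all genes. In the vector line, 2 were at least 2-fold higher with OTX-015 (S100A7 and S100P; 13% of all genes) and 2 at least 2-fold lower (S100A2 and S100A4; 12.8%). In the wtBRCA1 line, 1 was at least 2-fold higher (S100A9; 12.9% of all genes) and 0 at least 2-fold lower (13.5%). The median log2 difference of the 10 was 0.02 in the vector line and 0.20 in the wtBRCA1 line, against 0 over all genes in both.

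By gene, S100P was higher with OTX-015 in both sublines, by 2.54 times in vector and 1.60 times in wtBRCA1 (effect 1.0 ± 0.27, limma adjusted p = 0.0736). S100A9 was higher in both too, by 1.44 and 6.36 times (effect 1.59 ± 0.44, adjusted p = 0.0799). S100A2 was lower in both, by 8.43 times in vector from a level of 16.1 FPKM and with a log2 difference of −0.47 in wtBRCA1 (effect −1.51 ± 0.46, limma adjusted p = 0.10). S100A4 was lower in both, by 3.95 times in vector and 1.31 times in wtBRCA1 (effect −1.15 ± 0.41, adjusted p = 0.144). None of these differences passed the test. S100A8 had log2 differences of 0.12 and 0.99 in vector and wtBRCA1, S100A7 of 1.18 and 0.19, S100A6 of 0.16 and 0.66, S100A11 of −0.08 and 0.22, and S100A14 of −0.19 and −0.26. Rescaled to TPM, the OTX-015 effects over both sublines changed sign for S100A6 (0.41 to −0.26), S100A8 (0.55 to −0.038) and S100A11 (0.07 to −0.60). They grew in size for S100A14 (−0.22 to −0.89), S100A10 (−0.45 to −1.12), S100A4 (−1.15 to −1.79) and S100A2 (−1.51 to −2.06). None of these passed, with S100A2 the closest (limma adjusted p = 0.0507 on the TPM scale). S100A10 in the vector line lay just inside the 2-fold line at −1.0 in log2(FPKM + 1), though its FPKM was 2.01 times lower. It passed that line with a pseudocount of 0.1, median-of-ratios scaling, quantile normalization or TPM.

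The response to OTX-015 was at least 1 log2 unit higher in wtBRCA1 than in vector for 4 of the 10 genes (13.3% of all genes) and at least 1 lower for 0 (14.2%), a difference that could not be tested with 1 library per group. The gap was 2.14 for S100A9, 2.08 for S100A2, 1.56 for S100A4 and 1.09 for S100A10. Of the other 6, S100A7 lay closest to the threshold, just inside it at −0.996. It crossed the threshold at −1.72 with a pseudocount of 0.1 and at −1.07 with quantile normalization or TPM. With a pseudocount of 5 it was −0.33. On the TPM scale no gene of the 10 was at least 2-fold higher with OTX-015 in the vector line, the effects over both sublines were 0.34 for S100P, 0.93 for S100A9 and 0.19 for S100A7, and over all genes 115 rose and 1340 fell, against 536 and 391 as deposited.

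The wider S100 system was read from lists of related genes. Of 11 other S100 genes, 5 were kept (S100A1, S100A3, S100A5, S100A13 and S100A16), 6 were listed at 0 in all libraries, and none of the 5 passed for either factor. S100A16 (203, 214, 284 and 251 FPKM) and S100A13 (87.1, 95.0, 103 and 202 FPKM) were the abundant ones. Of 7 S100-fused genes, such as FLG of the skin barrier, none was kept.

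Among 6 receptors of released S100 proteins, 5 were kept. BSG (basigin), a receptor of S100A9, rose with OTX-015 and in wtBRCA1, with 354 FPKM in vector DMSO, 742 in vector OTX-015, 700 in wtBRCA1 DMSO and 1362 in wtBRCA1 OTX-015 (effects 1.01 and 0.93, limma adjusted p = 0.0297 and 0.0270). ALCAM rose in wtBRCA1 (effect 1.22, adjusted p = 0.0458), and AGER stayed between 3.83 and 4.27 FPKM in the 4 libraries. For BSG with OTX-015, BSG in wtBRCA1 and ALCAM in wtBRCA1, the call was lost in 8, 8 and 10 of 13 alternative settings. The OTX-015 effect of BSG was 0.35 on the TPM scale (limma adjusted p = 0.293) and 0.60 with quantile normalization (0.148).

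Among 14 intracellular partners, all kept, 1 rose with OTX-015: MYH9, the myosin heavy chain bound by S100A4 (effect 1.14, limma adjusted p = 0.0469, lost in 10 of 13 settings; 0.47 on the TPM scale, adjusted p = 0.283). In wtBRCA1, CACYBP rose and 4 fell: EZR, ANXA1, ANXA11 (effect −1.49, adjusted p = 0.0175) and SUGT1, an S100A6 target (effect −2.30, adjusted p = 0.00629). The ANXA11 and SUGT1 calls were each lost in 2 of 13 settings. FABP5, the fatty acid carrier bound by S100A7, was listed at 0 in both vector libraries and at 3.07 and 1.37 FPKM in the wtBRCA1 libraries. The partners' median difference between sublines was −0.40 under DMSO and −0.43 under OTX-015, against 0.04 and 0 over all genes.

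S100A10 with annexin A2 is known to gather plasminogen activity at the cell surface. Of 5 plasmin system genes 4 were kept. PLAU (urokinase) fell with OTX-015, from 15.9 to 5.68 FPKM in vector and from 20.8 to 5.25 in wtBRCA1 (effect −1.57, limma adjusted p = 0.0450, lost in 9 of 13 settings). Of 16 epithelial and inflammatory transcription factors, all kept, none passed for either factor. JUN had an OTX-015 effect of 1.24 (adjusted p = 0.0871), FOS of 1.31 (0.188), EHF of −1.17 (0.0715), and GRHL3 a subline effect of −1.69 (0.0586).

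The chromosome 1 genes were also compared with what lies among them. Between the outermost S100 genes the files list 73 genes outside the S100 family, of which 12 reached 1 FPKM in a library. Of those 12, 10 also had a locus of at least 300 nt and entered the fit. All 9 S100 genes described there reached 1 FPKM, but they were chosen with earlier results of these data known. Of 8 other S100 genes there, 5 did. The most abundant neighbour, CHTOP, reached 46.3 FPKM. In some library, 7 of the 9 S100 genes described and 2 of the 8 others exceeded 50 FPKM. In wtBRCA1 against vector under DMSO, 3 of the 10 neighbours in the fit were at least 2-fold higher and 0 lower. Among the 9 S100 genes described there, 3 were higher and 1 lower. Among the 5 other S100 genes that reached 1 FPKM, 1 was higher and 1 lower. Under OTX-015, 1 neighbour was higher and 2 lower. Of the 9 S100 genes described, 6 were then higher and 0 lower, and of the 5 others 2 were higher and 1 lower. Over all genes, 14.9% were higher and 11.8% lower under DMSO, and 15.1% and 12.7% under OTX-015. The neighbours stood at lower levels, where log2(FPKM + 1) understates changes. Among the 10 neighbours in the fit, SPRR1B, a cornified envelope gene, had the largest effect. It stood at 3.85 FPKM in vector DMSO, 8.99 in vector OTX-015, 20.1 in wtBRCA1 DMSO and 14.2 in wtBRCA1 OTX-015. Its subline effect was 1.36 (limma adjusted p = 0.102). SPRR1A was left out of the fit for its short locus. It went from 5.61 to 0 FPKM with OTX-015 in vector and from 6.23 to 0 in wtBRCA1 (log2 differences −2.73 and −2.85). PGLYRP4, HMGN3P1, RP1-178F15.5, SPRR3 and BX470102.3 had subline effects of 0.89, 0.78, 0.86, −0.68 and −0.90, and none passed.

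**Figure D4:**
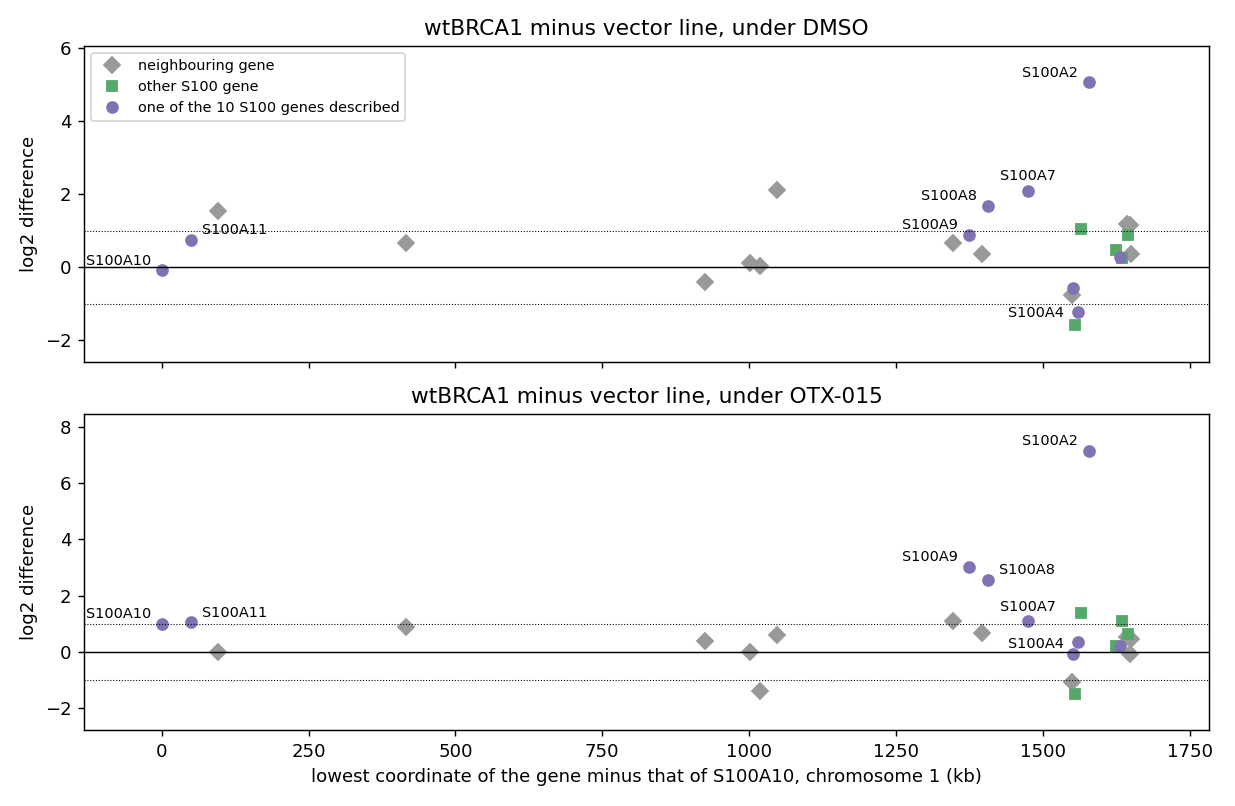
Difference of log2(FPKM + 1) between wtBRCA1 and vector (1 library each) against position on chromosome 1 in kb from S100A10, under DMSO (top) and OTX-015 (bottom), for genes reaching 1 FPKM in a library; dotted lines mark 2-fold. S100A2 stands alone at 5.07 and 7.15, S100A9 and S100A8 lie together at 3.03 and 2.56 under OTX-015, and S100A4 near S100A2 lies at −1.22 and 0.34.

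Closeness on the chromosome did not mean a like difference for every pair: S100A4 and S100A2 lie in the same stretch, with subline differences of −1.22 and 5.07 under DMSO. Some loci also overlap. S100A4 shares its locus in the files with S100A3 (0, 0, 1.07 and 1.64 FPKM) and S100A6 with the antisense gene BX470102.3 (10.9, 9.36, 6.07 and 3.99 FPKM). The library kit keeps strand, but whether the authors counted by strand was not stated in the labels or notes read. The S100A11 pseudogenes S100A11P1 and S100A11P2 were listed at 0 in all libraries.

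For the 3 genes with the widest ranges, the 5 genes most alike in pattern were found among 10739 candidates reaching 5 FPKM, by the largest difference in log2(FPKM + 1) over the 4 libraries after each gene's mean was removed. For S100A2 these were PDZK1IP1 (1.19), C1orf21 (1.28), SERPINA3 (1.32), CHI3L2 (1.42) and EPB41L2 (1.43). All 5 were listed at 0 in vector OTX-015, where S100A2 was at its lowest. For S100P they were KRT4 (0.36), GDA (0.38), ADGRE2 (0.57), VIPR1 (0.58) and MPP1 (0.61). KRT4, a keratin of stratified mucosa, had 78.0, 123, 6.35 and 7.19 FPKM. For S100A9 they were HIST1H2AI (0.28), IGFBP7-AS1 (0.30), RSU1 (0.33), CYP39A1 (0.40) and MAN1A2 (0.43). Of these, HIST1H2AI, IGFBP7-AS1 and CYP39A1 were listed at 0 in both vector libraries, where S100A9 stood at 72.2 and 104 FPKM. RSU1 had 32.4, 65.6, 92.9 and 395 FPKM, like S100A9 highest in wtBRCA1 OTX-015. With 4 points per gene, such likeness is a description only.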

How the data were processed

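Poly(A) RNA was sequenced from 4 libraries, 1 per group, with samples grouped by their titles. Per the submitters' processing notes, reads were handled with TopHat2 and Cufflinks on hg38, and the authors deposited 1 FPKM value per gene and library. FPKM are not counts, and no whole-read steps were found, so counting precision is unknown. Rows of one symbol were summed. Genes with a locus under 300 nt or below 1 FPKM in all libraries were left out. Values were analysed as log2(FPKM + 1) with limma 3.58.1 (R 4.3.3; subline plus treatment, mean-variance trend, 1 residual degree of freedom per gene, Benjamini-Hochberg over 18356 genes, 0.05). The fit was tested on simulated data. Pairs of libraries were described by a 2-fold difference. Of the files' gene identifiers, 56993 (94.2%) matched GENCODE 29. Promoters came from RefSeq.

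The members and lists were chosen with earlier results of these data known. Named genes are every S100 gene listed, up to 5 genes per list and 6 neighbours with the largest effects, and the 5 genes most alike in pattern for each of 3 genes. Outside that rule and chosen after their values were seen are CHTOP, SPRR1A, MYH9 and ANXA1. Alternatives covered pseudocounts of 0.1 and 5, the filters, 3 scalings, the model and the handling of short and repeated genes. Leaving out short RNA classes of GENCODE 29 was added after seeing the data. Protein sequences were not used here. A gene of the plasmin system list is not reported here.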

Additional observations from a re-analysis of the deposited data

Results flagged for a closer look

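For S100A4, S100A10 and S100A11, differences had opposite signs in the 2 strata, and these were not tested because each one rests on 1 library per group. With OTX-015, S100A10 differed by −1.0 in the vector line and 0.09 in the wtBRCA1 line, a gap of 1.09 log2 units. S100A11 differed by −0.08 and 0.22, a gap of 0.30. Between the sublines, S100A4 was −1.22 under DMSO and 0.34 under OTX-015, a gap of 1.56. S100A10 was −0.08 and 1.01 there, again a gap of 1.09, since the same 4 values give both.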

How the results depend on the processing

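None of the 10 S100 genes described was called for OTX-015 in any of 13 alternatives. For the subline, 5 of the 10 were called as reported (7.16% of all genes). The count was 3 with a pseudocount of 0.1 (5.92% of all genes) or 5 (3.36%) or a 5 FPKM filter (4.91%). It was also 3 with median-of-ratios scaling (4.71%), quantile normalization (3.74%) or TPM (3.89%). The count was 2 with no filter (1.46%) or no mean-variance trend (0.474%), and 0 when treatment was left out of the fit (0.311%). The causes were not tested. S100A9 and S100A11 each lost their call in 10 of 13 alternatives, S100A8 in 3. The number at least 2-fold apart with OTX-015 in the wtBRCA1 line was 1 as reported and 2 with a pseudocount of 0.1 or TPM. OTX-015 effects of 3 genes that had not passed changed sign. S100A11 went from 0.07 to −0.0014 (median-of-ratios scaling), −0.27 (quantile normalization) and −0.60 (TPM), S100A6 from 0.41 to −0.086 (quantile normalization) and −0.26 (TPM), and S100A8 from 0.55 to −0.038 (TPM). Genes called for OTX-015 numbered 536 higher and 391 lower as reported, 35 and 27 with quantile normalization, and 2 and 2 without the trend. For the subline they were 778 and 537, and 51 and 36 without the trend.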
